A study of Mus musculus with 64 samples.

Results

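The genes described here are 43 interferon-stimulated genes, chosen by name from the list given for this series: genes whose transcripts are known to rise when a cell senses interferon. All 43 were found among the 55809 genes of the mouse count tables (GENCODE vM30 on GRCm39), and each had a mean of at least 10 counts in every comparison, so that no member was lost to the filter on low counts. By role they comprised 4 transcription factors and signalling genes, 5 sensors of nucleic acid, 19 antiviral effectors, 6 genes of ISG15 conjugation and ADP-ribosylation, 5 interferon-inducible GTPases and 4 genes of antigen presentation. They were described across 64 bulk RNA-seq libraries (28 groups) of mouse CD4+ T cells of the regulatory T (Treg) lineage, with Foxp3 switched on in vivo or its protein degraded. Levels are in CPM, the read pairs assigned to a gene per 1000000 read pairs assigned in that library.

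Type I and type III interferons act through a complex that holds STAT2 and IRF9 and binds the interferon-stimulated response element (ISRE), whereas interferon gamma acts mainly on the gamma-activated site (GAS) and through IRF1, which it induces. Antiviral effectors of the Ifit, Oas and Mx families respond mostly to type I interferon, while guanylate-binding proteins (Gbp), immunity-related GTPases (Igtp, Irgm1) and the antigen processing genes (Psmb8, Psmb9, Tap1, Nlrc5) respond strongly to interferon gamma, with much overlap. In T cells a low tonic level of these transcripts is present without infection.

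In the knock-in knock-out (KIKO) design, heterozygous females carried Foxp3-LSL, an allele in which a loxP-flanked Thy1.1-STOP cassette replaced Foxp3 expression until Cre removed it. Treg "wannabe" cells transcribe this locus without making the protein, and resting or active cells were taken from spleen and lymph nodes after a single dose of 4-hydroxytamoxifen (4-OHT). plusFoxp3 mice had Cre-ERT2 driven from Cd4, and minusFoxp3 littermates had wild-type Cd4 and so could not restore Foxp3. The gates differed between the arms, since minusFoxp3 cells were Thy1.1+ GFP- and plusFoxp3 cells from day 3 were GFP+, so that the gate and the presence of Foxp3 cannot be told apart. Day 0 cells of both genotypes were untreated, and cells were also taken at days 3, 7, 14 and 28, with 2 libraries in each group. Untreated Foxp3GFP mice gave resting and active GFP Treg cells, 2 libraries each. In the degron design every mouse, WT controls included, carried Foxp3-AID, which also encodes ZsGreen and Cre, and received 5-ph-IAA for 7 days, and the TIR1 mice had the ROSA26-TIR1(F74G) ligase that degrades the tagged protein. Adult females, heterozygous for Foxp3-AID and the wild-type allele, gave nascent ZsGreen+ CD73- thymic Treg cells and active (CD62L low, CD44 high) Treg cells of spleen and lymph nodes, 3 libraries per genotype. Infants gave Treg cells of spleen and lymph nodes, 4 per genotype, and the paper describes the mice of its neonatal experiments as hemizygous Foxp3-AID males. The labels give ages no further than infant, and do not say which libraries came from the same animal.

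Labels and files conflict in the degron design. The headers of the 12 adult degron files name other libraries than the samples they are attached to, and the headers were followed here. Under the attachment the adult TIR1 differences change sign. Infant groups are called titled TIR1 and titled WT, because their genotype field says the opposite of their titles. Depth was 27753211 to 57419138 read pairs assigned to genes per library, so that 3 reads, the limit a count of 0 allows, equalled 0.0522 to 0.108 CPM (counting error only). Foxp3 transcripts matched the KIKO labels, at 426 to 615 CPM in plusFoxp3 libraries from day 3 against 44.3 to 81.5 in minusFoxp3 libraries. The degron acts on protein, and there Foxp3 transcripts were at 76.7 to 93.4 CPM in active TIR1 against 99.95 to 127 in active WT libraries, without overlap, at 144 to 168 against 144 to 181 in thymus, and at 321 to 373 in titled TIR1 against 297 to 424 in titled WT infants. Treg markers were at 3693 to 9576 CPM summed over 8 genes. In 5 of 10 active minusFoxp3 libraries, Siglech, Spib, Klk1 and Cox6a2, markers of plasmacytoid dendritic cells (pDC, the main interferon producers), summed to 36.9 to 205 CPM, against at most 9.12 in the other 5 and at most 3.65 in all other libraries. Counts of called members in active KIKO cells against minusFoxp3 cells, other than that of the interaction with state, are also given without these libraries. Irf8, also on the list of pDC markers, was left out of this sum. It was at 49.8 to 175 CPM in these 5 libraries and 12.1 to 24.2 in the other 5. In active GFP Treg libraries Irf8 was at 88.3 and 85.7 CPM. In bulk samples, fewer expressing cells and less RNA per cell cannot be told apart.

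Promoter sequences show which elements the members share. Of the 43 members, 33 matched the RefSeq promoter table (GRCm38.p6, 250 bases before to 50 after the start). The ISRE core was searched as GAAANNGAAA or TTTCNNTTTC, which covers both strands, and was found in 17 of 33 members (51.5%) and in 1079 of all 27025 promoters (3.99%). All 5 GTPases and all 3 matched nucleic acid sensors held it, as did 7 of 15 antiviral effectors, 1 of 4 transcription factors, 1 of 3 ISG15 genes and 0 of 3 antigen presentation genes. GAS was searched as TTCNNNGAA, which reads the same on both strands, and was in 10 of 33 members (30.3%) and 9.55% of all promoters. The windows below were chosen among members that held a motif and whose values are given in what follows. Irf7, Oasl1, Oasl2, Ube2l6, Tap1, Psmb9, Dtx3l and Ifi44 were among the described members that matched the table and held neither motif. Each window has 30 bases on GRCm39, placed by exact match, read along the gene's strand, with the motif in capitals. A match is a description of letters and not of binding.
Gbp2, chr3:142326355-142326384, plus strand, ISRE: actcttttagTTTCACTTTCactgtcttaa
Gbp3, chr3:142265756-142265785, plus strand, ISRE: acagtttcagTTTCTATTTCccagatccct
Gbp7, chr3:142236034-142236063, plus strand, ISRE: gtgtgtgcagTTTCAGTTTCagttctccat
Igtp, chr11:58090338-58090367, plus strand, ISRE: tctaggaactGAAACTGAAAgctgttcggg
Ifit1, chr19:34618194-34618223, plus strand, ISRE: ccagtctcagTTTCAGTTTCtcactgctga
Ifit3, chr19:34560797-34560826, plus strand, ISRE: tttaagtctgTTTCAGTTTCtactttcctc
Isg15, chr4:156285322-156285351, minus strand, ISRE: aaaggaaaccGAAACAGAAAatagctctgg
Irf1, chr11:53660741-53660770, plus strand, GAS: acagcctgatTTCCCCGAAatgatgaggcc
Gbp7, Gbp3 and Gbp2 lie next to each other on chromosome 3, at 142236103 to 142255910, 142265787 to 142278970 and 142326363 to 142343769, all on the plus strand.

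Levels spanned a wide range among members. Per kilobase of exon, the median over all libraries was highest for Igtp (247 CPM per kb), an immunity-related GTPase, followed by the immunoproteasome subunit Psmb8 (175), the virion tether Bst2 (125) and the subunit Psmb9 (104). It was lowest for the antiviral genes Mx2 (1.70), Ifi44 (1.49) and Oas2 (1.45), and Ifi44 was at 0 in 2 libraries. Members with the same role could thus lie far apart, as Bst2 and Oas2 did among the antiviral effectors. By group mean CPM, a thymus group was highest for 19 of 43 members, Irf7, Ifit1 and Rtp4 among them, the titled TIR1 infants for 10 and GFP Treg cells for 6, among them Gbp2, Gbp3 and Gbp7. Degron and KIKO files were counted with different read filters, so no difference between the 2 designs was tested.

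**Figure D1:**
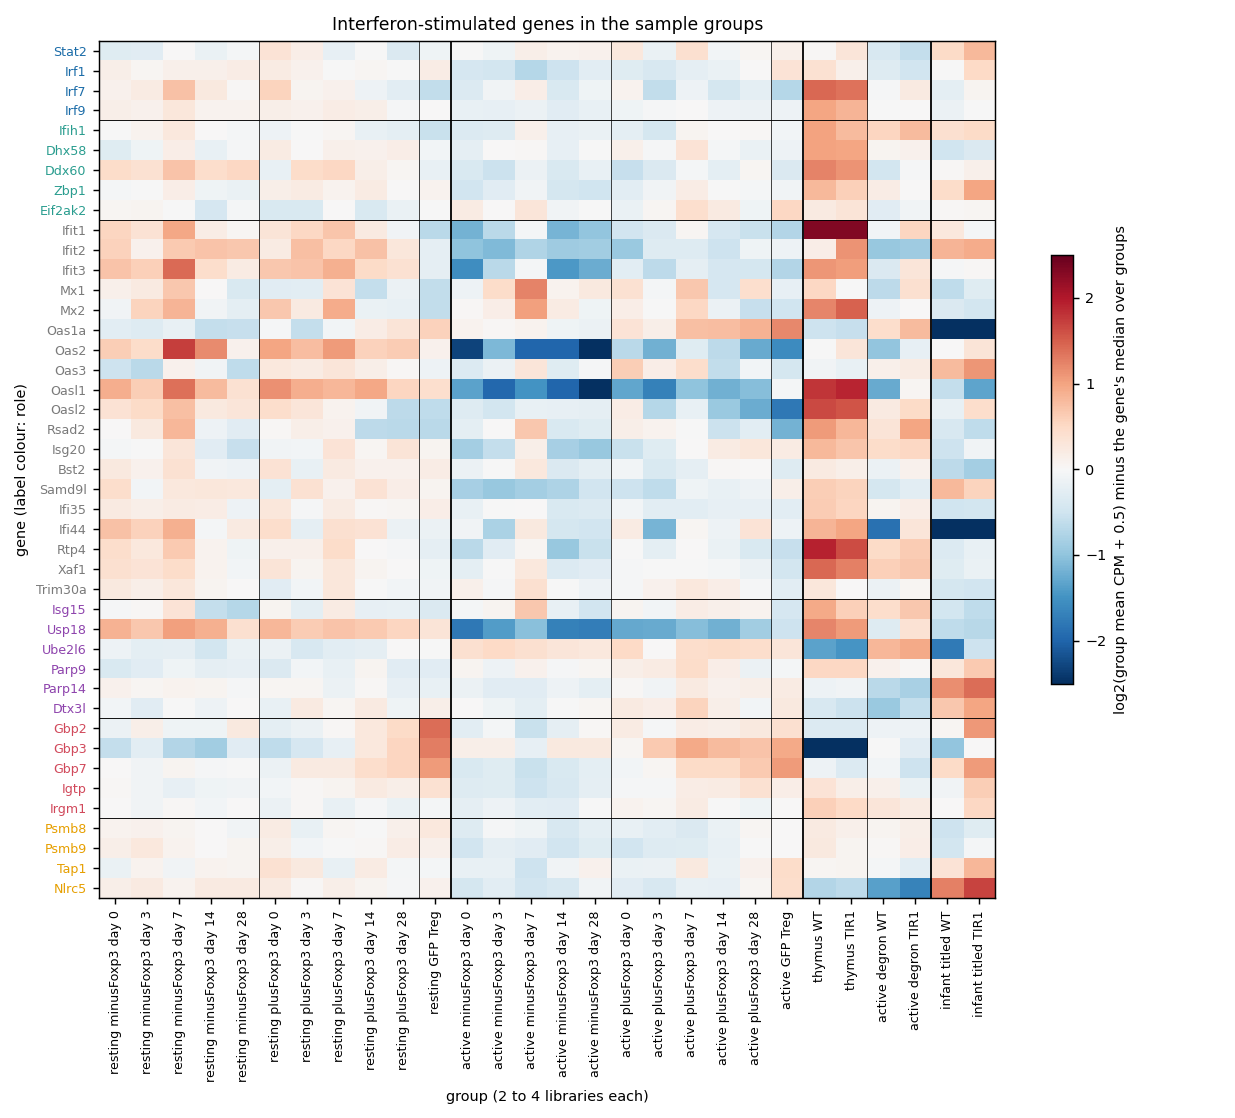
Each row is a gene (label coloured by role) and each column a group of 2 to 4 libraries; colour is log2 of the group's mean CPM plus 0.5, minus the gene's median over the 28 groups. Red marks a group above that median, as for Gbp2, Gbp3 and Gbp7 in GFP Treg cells and for Ifit1, Oasl1 and Rtp4 in thymus, while levels across the KIKO and degron blocks rest on different read filters.

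Whether restored Foxp3 alters these genes was asked by comparing plusFoxp3 with minusFoxp3 cells at each day. The members that changed were guanylate-binding proteins, which are recruited to the vacuoles of intracellular pathogens. In active cells at day 7, Gbp3 was at 264 and 267 CPM with Foxp3 against 94.6 and 145 without (log2 fold change 1.19, SE 0.19, edgeR adjusted p = 0.00593), and Gbp7 at 311 and 285 against 112 and 182 (1.07, SE 0.21, edgeR adjusted p = 0.0297). At day 28, Gbp7 was at 342 and 339 CPM against 185 and 179.7 (0.91, SE 0.21, edgeR adjusted p = 0.0324). The 2 genotypes did not overlap in any of these cases. At day 0, before treatment, they did not overlap for Gbp7 either, at 200.2 and 212 CPM in plusFoxp3 and 151 and 179 in minusFoxp3 cells (0.33). The share of all genes without overlap was counted for infants only.

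In active cells the calls numbered 0, 0, 2, 0 and 1 of 43 at days 0, 3, 7, 14 and 28, while the shares of all 20776 genes called were 0.00481%, 0.274%, 0.568%, 0.732% and 1.85%. DESeq2 called 0 members at day 0 (0.0818% of all genes), 0 at day 3 (1.27%), 4 at day 7 (Gbp7, Gbp3, Igtp and Dtx3l, 2.32%), 2 at day 14 (Gbp7 and Isg20, 2.49%) and 5 at day 28 (Gbp7, Oasl1, Oas2, Oas1a and Isg20, 3.82%). At an unadjusted p under 0.05, edgeR gave 3 members at day 0 (4.58% of all genes), 3 at day 3 (7.40%) and 7 at day 14 (10.2%). The calls rested on single libraries. At day 7 there were 0 without minusFoxp3 replicate 1 or without plusFoxp3 replicate 1, 1 without plusFoxp3 replicate 2 and 14 without minusFoxp3 replicate 2, and at day 28 there were 0 without any one of the 4 libraries. In such fits the lone library of an arm is taken to vary like the other groups.

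minusFoxp3 replicate 2 of day 7 held the most pDC marker transcripts (205 CPM), and its levels of several members were far above those of replicate 1. Irf7, the transcription factor of the type I interferon response that pDC express strongly, was at 299.5 against 137 CPM, Usp18, which removes ISG15 from proteins, at 72.6 against 23.2, and Mx1 at 42.6 against 18.6. At the other days the pDC-marker library was not always the higher. Its Irf7 was at 151 against 154 CPM at day 0 and 164 against 202 at day 3. At day 14 it was at 204 against 93.0 and at day 28 at 213 against 146. Replicate 1 of day 7 had in turn the lowest level of 12 members among the 22 active libraries, Gbp2, Gbp3, Gbp7, Igtp, Irgm1, Tap1 and Nlrc5 among them. Without the 5 libraries with pDC markers, a choice made after the data were seen, the calls were 16 members at day 7 (13.4% of all genes), 3 at day 14 (0.551%) and 1 at day 28 (1.53%), each day then having a minusFoxp3 arm of 1 library. At day 14 these were Gbp7 (0.93, edgeR adjusted p = 0.0279), Isg20 and Oas1a. At days 0 and 3 there were 0 calls without these libraries, as with them (0.00483% and 0.116% of all genes). The part of pDC transcripts in the differences was not tested.

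Of the B cell markers, Ighm, the immunoglobulin mu heavy chain, moved with Foxp3 as well. In active cells it was at 219 to 387 CPM in minusFoxp3 libraries of all days and, in plusFoxp3 libraries, at 301 to 339.6 at day 0, 1223 to 1232 at day 7 and 1564 to 2331 at day 28. In resting cells it was at 489 to 642 in minusFoxp3 libraries and 1270.0 to 1611 in plusFoxp3 libraries at day 28, and in GFP Treg cells at 2121 to 2123 (resting) and 3754 to 3902 (active). Cd79b, a signalling chain of the B cell receptor, was at 6.79 to 22.8 CPM in active minusFoxp3 libraries, 19.3 to 33.0 in active plusFoxp3 libraries of day 28 and 37.1 to 41.2 in active GFP Treg cells. Cd79a was at most 9.09 CPM in these 44 libraries, and Ms4a1 and Pax5, which mark B cells, were at most 1.84 and 1.16. The part of B cell transcripts in the differences was not tested.

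**Figure D2:**
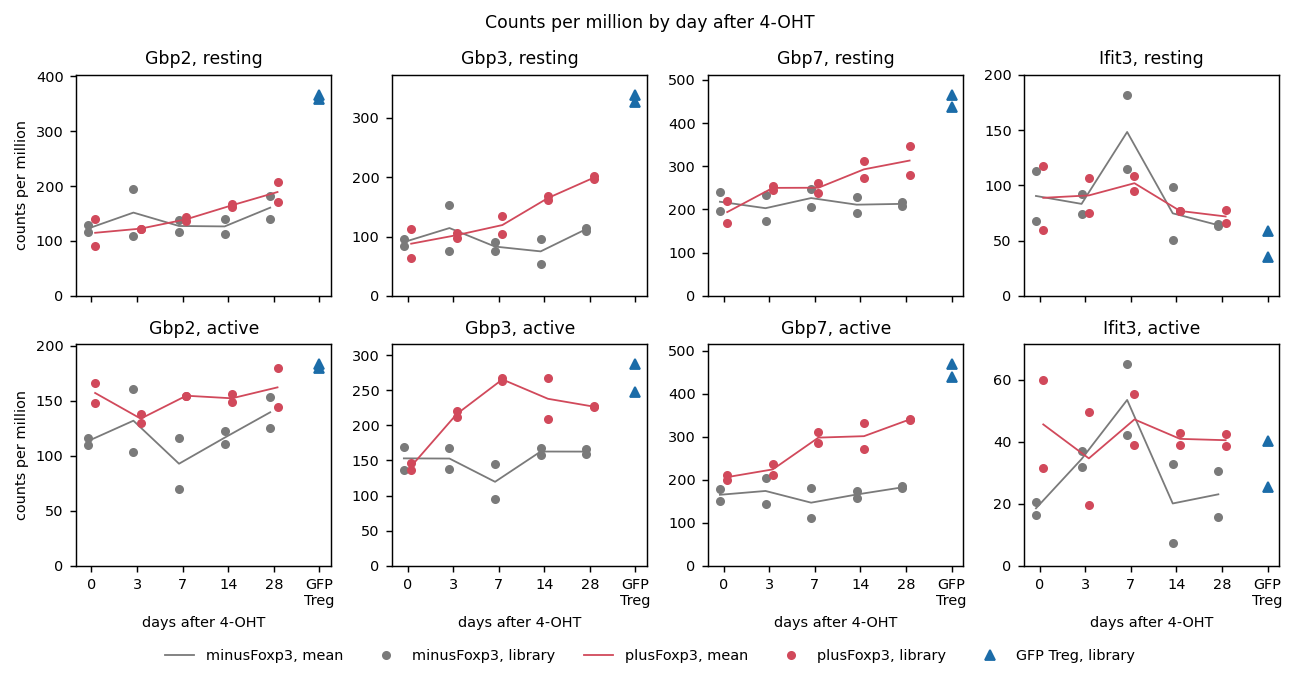
CPM of Gbp2, Gbp3, Gbp7 and Ifit3 by day after 4-OHT (day 0 untreated, days evenly spaced) in resting (top) and active (bottom) cells; points are libraries, lines join the means of 2, and triangles are GFP Treg cells. Active Gbp7 with Foxp3 ran from 200.2 and 212 at day 0 to 342 and 339 at day 28 while minusFoxp3 libraries stayed between 112 and 205, and Ifit3 ranged from 7.47 to 65.0 in minusFoxp3 and from 19.7 to 59.9 in plusFoxp3 libraries of active cells.

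In resting cells edgeR called 0 members at each of the 5 days, though 5 at day 0 without plusFoxp3 replicate 2. The shares of all 20520 genes called by edgeR were 0.00487%, 0.0487%, 0.0585%, 0.268% and 0.945% at days 0, 3, 7, 14 and 28. At an unadjusted p under 0.05 there were 1, 1, 1, 4 and 5 members, against 10.8%, 10.95%, 5.71%, 8.87% and 8.90% of all genes, so that the members' share was below the background at days 0 to 7 and near it at days 14 and 28. DESeq2 called 0, 0, 0, 1 (Gbp3) and 1 (Isg20), against 0.219%, 1.07%, 0.716%, 1.43% and 2.26% of all genes. The member of smallest p was Tap1, which carries peptides into the endoplasmic reticulum, at day 0 (0.54, edgeR adjusted p = 0.452), the ubiquitin ligase Dtx3l at day 3 (0.59, edgeR adjusted p = 0.407) and Irf7 at day 7 (-0.64, edgeR adjusted p = 0.714).

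At day 14 resting Gbp3 was at 168 and 162 CPM with Foxp3 against 54.4 and 95.5 without (1.17, SE 0.32, edgeR adjusted p = 0.181). At day 28 it was at 201 and 197 against 115 and 110.0 (0.84, edgeR adjusted p = 0.368), and Gbp7 at 280.4 and 346 against 208 and 218 (0.57, edgeR adjusted p = 0.29). Isg20, an RNA exonuclease, was at 106 and 79.5 CPM against 45.7 and 52.4 at day 28 (0.93, SE 0.23, edgeR adjusted p = 0.0772). In each of these the genotypes did not overlap, a feature not counted over all genes, and none passed the test. Oasl2, of the oligoadenylate synthetase family, lay the other way at day 28, with 12.8 and 20.2 CPM against 33.6 and 31.5 (-0.96, edgeR adjusted p = 0.409).

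By day, given here as a description, the Gbp genes of the 2 states ran as follows. In resting cells the log2 fold changes of Gbp3 at days 0, 3, 7, 14 and 28 were -0.05, -0.09, 0.51, 1.17 and 0.84, and those of Gbp7 were -0.18, 0.37, 0.13, 0.51 and 0.57. In active cells they were -0.10, 0.56, 1.19, 0.55 and 0.49 for Gbp3 and 0.33, 0.42, 1.07, 0.87 and 0.91 for Gbp7. Gbp3 was thus highest relative to its control at day 7 in active and at day 14 in resting cells, and Gbp7 stayed high in active cells from day 7. Each Gbp3 peak fell on a day when minusFoxp3 replicate 1 had the lowest Gbp3 among the 22 libraries of its state. That library was at 94.6 CPM in active and 54.4 CPM in resting cells. Gbp2 differed less, between 0.07 and 0.78 in active and between -0.24 and 0.42 in resting cells.

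Over the 43 members, the median log2 fold change in active cells was 0.223, 0.105, 0.164, 0.299 and 0.226 at the 5 days, with 39, 28, 29, 35 and 33 members above 0, while the median over all genes lay between -0.022 and 0.027. The count at day 0 was thus 39 before any treatment. Without the pDC-marker libraries the medians were 0.224, 0.033, 0.569, 0.617 and 0.342, with 34, 24, 35, 42 and 38 members above 0. In resting cells the medians were -0.024, -0.001, -0.155, 0.072 and 0.098, with 19, 21, 11, 28 and 23 above 0, against -0.048 to 0.006 over all genes. Of the antiviral effectors at day 28, 16 of 19 were above 0 in active cells (median 0.277) and 12 of 19 in resting cells (0.112). The difference between the states in the Foxp3 effect at day 28 was tested by the interaction and called 0 members (0.0818% of all genes). Unadjusted, 2 had a p under 0.05, Ifit2 and Oasl1 (5.58% of all genes), and DESeq2 called 0 (0.322%). Without the pDC-marker libraries its median was 0.266 in place of 0.145.

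minusFoxp3 cells, which cannot restore Foxp3, were compared across the 5 days to see the effect of treatment and time alone. edgeR called 0 members in resting (0% of all genes) and 0 in active cells (0%). At an unadjusted p under 0.05 there were 3 in resting cells (Isg20, Rtp4 and Ifit3, 2.72% of all genes) and 1 in active cells (Isg20, 3.42%), and DESeq2 called 0 in both (0.229% and 0.371%). Without the pDC-marker libraries edgeR called 0 in active cells (0.0869%).

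GFP Treg cells, in which Foxp3 was never absent, were compared with untreated minusFoxp3 cells. Mouse line, Foxp3 allele and reporter differ along with Foxp3 between these cells, and their parts cannot be told apart. In resting cells 3 of 43 members rose and none fell, against 2.91% of all genes called, and the 3 were the guanylate-binding proteins. Gbp2 was at 367 and 358 CPM in GFP Treg cells and 129 and 116 in minusFoxp3 cells (1.58, SE 0.25, edgeR adjusted p = 0.00153). Gbp3 was at 327 and 339 against 84.7 and 96.5 (1.89, SE 0.32, edgeR adjusted p = 0.00275), and Gbp7 at 438 and 466 against 196 and 240.0 (1.06, SE 0.19, edgeR adjusted p = 0.00498). GFP libraries lay above both controls for each gene, a feature not counted over all genes. Without minusFoxp3 day 0 replicate 1, Gbp2 alone was called (Gbp3 edgeR adjusted p = 0.0551, Gbp7 0.0914).

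Antiviral effectors lay on the other side in resting GFP Treg cells, with 3 of 19 above 0, a median of -0.523 and no call. Ifit1, which binds viral RNA, was at 51.8 and 65.7 CPM against 178 and 97.2 (-1.21, edgeR adjusted p = 0.0705). Irf7 was at 93.6 and 161 against 210.0 and 208 (-0.71, edgeR adjusted p = 0.188). The median over all 43 members was -0.046 (16 above 0), against -0.012 over all genes, since GTPases and effectors differed in sign.

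In active GFP Treg cells 8 of 43 members were called, 7 higher and 1 lower than in minusFoxp3 day 0 cells, beside 10.01% of all genes (5.21% higher and 4.79% lower). Gbp7 was at 438 and 468 CPM against 151 and 179 (1.48, SE 0.21, edgeR adjusted p = 0.000181). Oas1a, which makes the second messenger that activates RNase L, was at 75.1 and 93.4 against 46.0 and 31.3 (1.15, SE 0.28, edgeR adjusted p = 0.0141), and Isg20 at 74.6 and 94.6 against 41.9 and 39.2 (1.08, SE 0.32, edgeR adjusted p = 0.0428). Oasl2 fell, with 6.00 and 8.53 against 17.1 and 24.2 (-1.48, SE 0.44, edgeR adjusted p = 0.043). GFP and control libraries did not overlap in any of the 4, which was likewise not counted over all genes.

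The other 4 that rose were Gbp3 (0.83), the transcription factor Irf1 (0.79), the immunoproteasome subunit Psmb9 (0.52) and Nlrc5 (0.90), the transactivator of MHC class I genes. Of the roles, GTPases had 2 of 5 higher (median 0.70), antigen presentation 2 of 4 higher (0.60), and antiviral effectors 2 higher and 1 lower of 19 (-0.02). The median over all members was 0.313, with 29 above 0, against 0.004 over all genes. The count was 2 without minusFoxp3 replicate 1 or GFP replicate 2, 3 without minusFoxp3 replicate 2 and 4 without GFP replicate 1. Without the 5 libraries with pDC markers 8 members were called (9.61% of all genes), but Isg20 and Oasl2 (edgeR adjusted p = 0.0707 and 0.165) and Psmb9 were no longer among them, while Gbp2, Tap1 and Rsad2 were.

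GFP Treg cells were also set against plusFoxp3 cells of day 28 to see what remained after restoration. Mouse line and 4-OHT treatment differ between these cells as well. edgeR called 0 members in resting cells (0.0341% of all genes). At an unadjusted p under 0.05 there were 3 (3.96% of all genes), Gbp2, Gbp3 and Gbp7, at 0.94, 0.75 and 0.53, and DESeq2 called 0 (0.283%). Gbp2 was at 171 and 208 CPM in plusFoxp3 day 28 and 367 and 358 in GFP Treg cells (edgeR adjusted p = 0.443). In active cells edgeR called 0 (2.01% of all genes), with 1 at an unadjusted p under 0.05, against 11.2% of all genes, the kinase Eif2ak2 (0.64, edgeR adjusted p = 0.209), and 0 by DESeq2 (3.94%). Of 54 further interferon-stimulated genes, taken up below, edgeR called 4 in that active comparison, all lower in GFP Treg cells. Among them Ly6a was at 444 and 630 CPM in GFP Treg and 997 and 1172 in plusFoxp3 day 28 cells. The comparisons with GFP Treg cells and the plusFoxp3 comparisons share the minusFoxp3 day 0 or plusFoxp3 day 28 libraries.

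**Figure D3:**
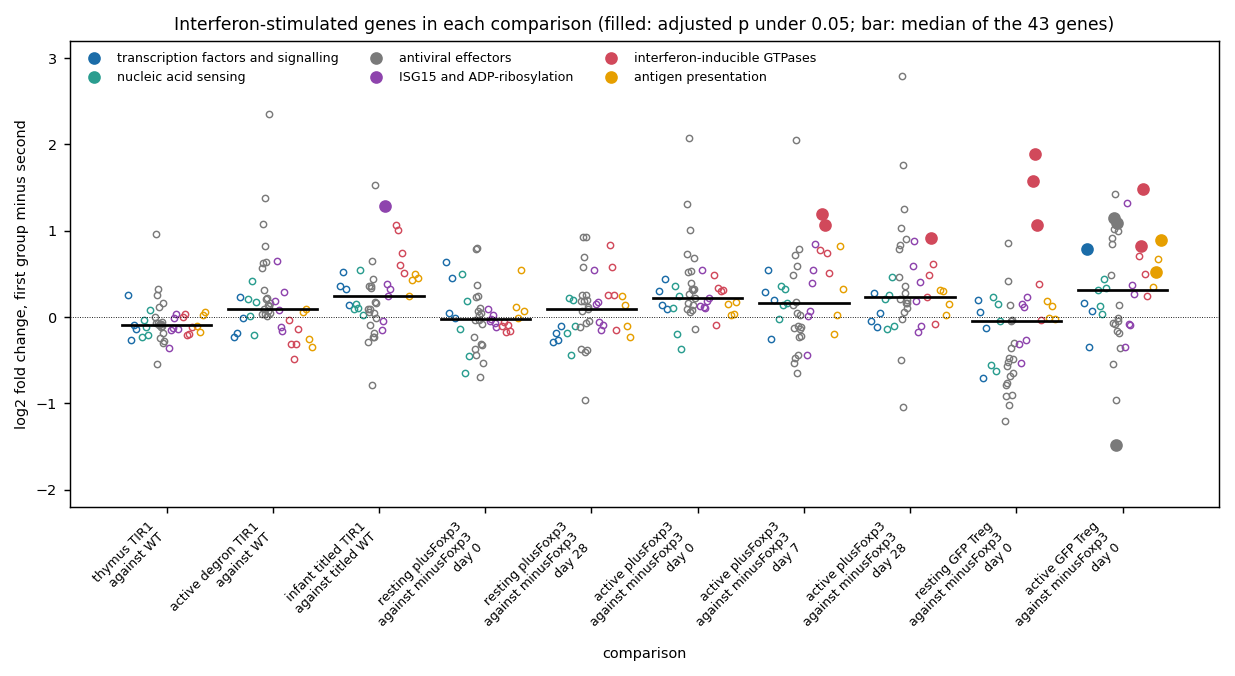
Points are the 43 genes in 10 comparisons, coloured by role, with the log2 fold change of the first named group minus the second on the vertical axis; filled points had an edgeR adjusted p under 0.05 and bars are the medians of the 43 genes. Filled points are GTPases at day 7 and day 28 in active cells and in resting GFP Treg cells, 8 genes in active GFP Treg cells and Ube2l6 in infants.

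Other genes of the interferon pathway were counted from 4 lists: 8 receptor and signalling genes, 6 negative regulators, 10 interferon genes and upstream sensors (6 to 8 tested) and 56 further interferon-stimulated genes (52 to 56 tested). In resting cells at day 28, where 0.945% of all genes were called, the receptor chain Ifngr1 rose (0.66, edgeR adjusted p = 0.025), from 219.8 and 248 CPM without Foxp3 to 354 and 378 with it. The cytosolic DNA sensor Cgas (1.40, edgeR adjusted p = 0.0407) and its adaptor Sting1 (0.62, edgeR adjusted p = 0.0224) rose as well. Among the 54 further genes 1 rose and 1 fell, and the one that rose was Ly6a, which encodes the surface antigen Sca-1. It was at 334 and 539 CPM against 80.6 and 135 (2.04, edgeR adjusted p = 0.000957).

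In active cells at day 28, beside 1.85% of all genes called, Sting1 rose (0.65, edgeR adjusted p = 0.0113) and 3 of 54 further genes rose, Ly6a to 997 and 1172 CPM against 144 and 175 (2.78, edgeR adjusted p = 4.55e-06). Ly6a was called higher in active cells at days 7 and 14 as well. Beside 10.01% of all genes called, active GFP Treg cells had 3 of 8 receptor and signalling genes higher than minusFoxp3 day 0 cells, Ifngr1 (1.20), Ifnar1 (0.76) and Ifnar2 (0.66), with the inhibitor Socs1 (0.81) and Sting1 (0.95). Of the further genes 6 rose and 5 fell there, against 2 and 3 in resting GFP Treg cells (2.91% of all genes called), where Ifngr1 rose as well (1.23, edgeR adjusted p = 6.81e-05). No receptor, signalling or negative regulator gene of these lists was called between plusFoxp3 and minusFoxp3 active cells at any day. Ifngr1 was still higher with Foxp3 there, at 416 to 441 against 234.2 to 248.5 CPM at day 7. It was at 433 to 456 against 244 to 323 at day 14 and 435 to 709 against 307 to 440 at day 28. At day 0, before treatment, it was at 346 to 357 in plusFoxp3 and 275.5 to 322 in minusFoxp3 cells.

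Cell state was compared within minusFoxp3 cells, with 10 libraries per state over the 5 days in place of the 2 per group of the Foxp3 contrasts. The libraries were fitted as unpaired, though same-number libraries of the 2 states deviated together. Of 43 members 27 differed, 4 higher and 23 lower in active cells, beside 37.9% of all 20790 genes (19.6% higher and 18.3% lower). Usp18 was at 21.4, 32.7 and 72.6 CPM (lowest, median and highest) in active and 127, 157 and 258 in resting cells (-2.31, SE 0.19, edgeR adjusted p = 7.65e-11). Oasl1, an inhibitor of Irf7 translation, was at 0.83, 2.34 and 4.42 CPM against 9.52, 18.6 and 34.9 (-2.90, SE 0.25, edgeR adjusted p = 1.64e-10), and Oas2 at 0.193, 1.07 and 3.56 against 3.63, 9.996 and 37.5 (-3.43, SE 0.43, edgeR adjusted p = 2.06e-07). The states did not overlap for these genes, a feature not counted over all genes.

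By role, 12 of 19 antiviral effectors were lower and 1 higher, 3 of 4 transcription factors lower, 2 of 5 sensors lower and 3 of 4 antigen presentation genes lower. Ifit3 was among those lower (-1.67), at 7.47, 31.3 and 65.0 CPM against 50.5, 83.3 and 182, as were Irf1 (-0.59) and Irf7 (-0.40). Higher in active cells were Gbp3, at 94.6, 159 and 169.8 CPM against 54.4, 93.4 and 154 (0.69, SE 0.12, edgeR adjusted p = 3.09e-05), and Ube2l6, the conjugating enzyme for ISG15, at 59.4, 81.1 and 91.8 against 36.7, 49.7 and 64.0 (0.63, SE 0.10, edgeR adjusted p = 5.86e-06). Oas1a (0.40, edgeR adjusted p = 0.023) and Parp9 (0.27, edgeR adjusted p = 0.0406) were higher as well. Isg15 itself was not called (0.22, edgeR adjusted p = 0.364). The median over all members was -0.263 (12 above 0), against -0.035 over all genes.

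Without the 5 active libraries with pDC markers 25 members were called, 2 higher and 23 lower (31.8% of all genes), and Oas1a and Parp9 were not (edgeR adjusted p = 0.15 and 0.281). Between active and resting GFP Treg cells 1 member was called (3.12% of all genes), Gbp2, which was lower in active cells, at 183 and 179 CPM against 367 and 358 (-1.02, SE 0.25, edgeR adjusted p = 0.018). It was not called without any one of the 4 libraries. More members were called with the replicate number as a block within group and day, an alternative given below. Among the KIKO and GFP Treg groups, Gbp2 thus had its highest level in resting GFP Treg cells, while Gbp3 and Ube2l6 were the called members of highest fold in active minusFoxp3 cells.

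**Figure D4:**
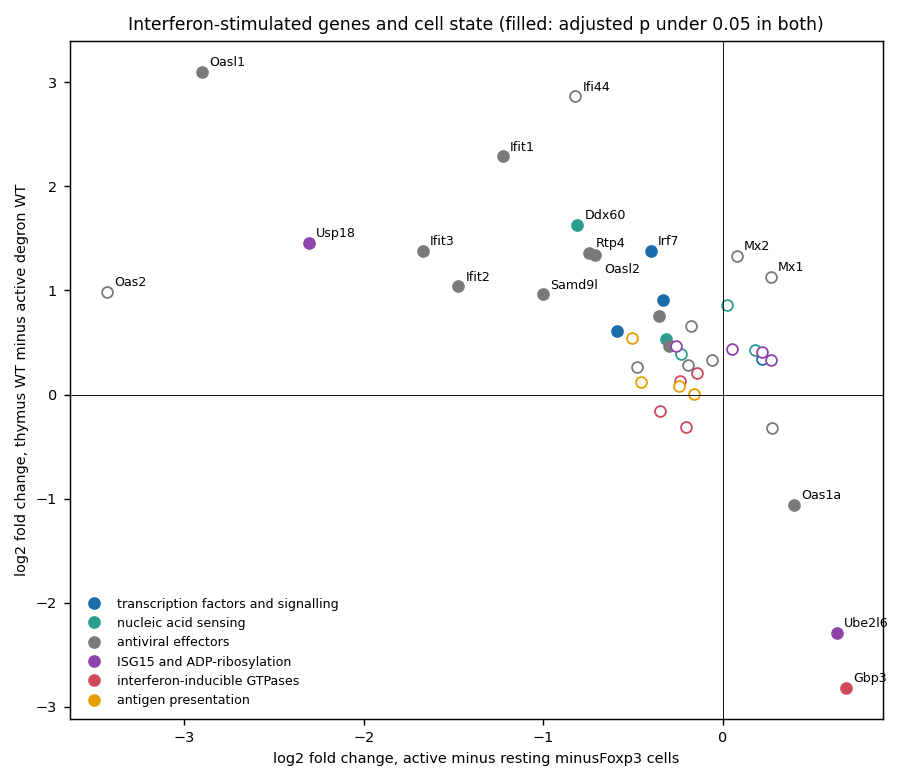
Each point is 1 of the 43 genes, with the log2 fold change of active minus resting minusFoxp3 cells on the horizontal axis and that of thymus WT minus active degron WT cells on the vertical axis; points are coloured by role and filled where the edgeR adjusted p was under 0.05 in both. Oasl1, Usp18 and the Ifit genes lie at the upper left, and Gbp3 and Ube2l6 at the lower right; the axes share no library.

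Nascent thymic and active peripheral Treg cells of the degron WT mice were compared as a second contrast of cell state, in which tissue and activation differ together and cannot be told apart. Of 43 members 16 were higher and 3 lower in thymus, beside 23.0% of all 14769 genes (9.22% higher and 13.8% lower). Ifit1 was at 470.5, 481 and 464 CPM in thymus and 94.3, 57.7 and 119.5 in active cells (2.29, SE 0.22, edgeR adjusted p = 1.24e-05). Ddx60, a helicase that assists viral RNA sensing, was at 150.4, 156 and 125 against 45.9, 38.6 and 46.1 (1.63, SE 0.14, edgeR adjusted p = 4.17e-06), and Oasl1 at 31.7, 26.3 and 49.9 against 7.71, 2.86 and 1.15 (3.11, SE 0.55, edgeR adjusted p = 0.00141). All 3 thymic libraries lay above all active ones for these genes, a feature not counted over all genes. Ighm was at 157 to 175 CPM in thymus WT libraries and 1055 to 1445 in active WT ones, and its part was not tested. Irf7 was likewise higher in thymus (1.38, edgeR adjusted p = 2.21e-06), at 589, 477 and 523 CPM against 181, 173 and 217.

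Gbp3 was lower in thymus, at 27.4, 21.0 and 13.4 CPM against 89.8, 157 and 163 (-2.82, SE 0.30, edgeR adjusted p = 2.63e-05), as was Ube2l6 at 29.4, 23.1 and 18.6 against 136, 104 and 85.3 (-2.29, SE 0.23, edgeR adjusted p = 1.78e-05). Oas1a was the third that was lower (-1.06, edgeR adjusted p = 0.0366), and it was no longer called without active WT replicate 1 or without any thymus WT library. The median over all members was 0.467, with 37 above 0, against -0.035 over all genes. In the pathway lists 5 of 6 negative regulators (4 higher, 1 lower) and 27 of 54 further genes (18 higher, 9 lower) were called.

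In infants, where the groups are named by title, 1 member was called and was higher in titled TIR1, beside 0.0185% of all 16209 genes called by edgeR. Under the genotype field every infant difference would have the opposite sign. Ube2l6 was at 42.2, 50.3, 41.8 and 35.6 CPM in titled TIR1 and 21.3, 13.4, 18.3 and 17.4 in titled WT libraries (42.5 ± 6.06 against 17.6 ± 3.25, SD, n = 4 each), with no overlap (log2 fold change 1.29, SE 0.15, edgeR adjusted p = 0.0172). Isg15, whose product Ube2l6 conjugates, was at 36.2, 37.2, 37.8 and 23.7 CPM against 45.6, 32.3, 45.9 and 28.2 (-0.16, edgeR adjusted p = 0.72), with the groups overlapping. Ube2l6 was not called without titled TIR1 replicate 1, titled TIR1 replicate 2 or titled WT replicate 3 (edgeR adjusted p = 0.0998, 0.0533 and 0.0982).

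In 9 members all 4 titled TIR1 libraries lay above all 4 titled WT libraries, beside 3.92% of all genes: Ube2l6, Gbp2, Gbp3, Psmb8, Psmb9, Tap1, Nlrc5, Zbp1 and Isg20. In 0 members all 4 lay below, beside 4.81% of all genes. Gbp2 was at 323, 341, 304 and 194 CPM against 142, 107, 125 and 190.1 (1.06, SE 0.21, edgeR adjusted p = 0.0781), and Tap1 at 942, 891, 878 and 845 against 632, 605, 566 and 743 (0.50, SE 0.08, edgeR adjusted p = 0.0653). Zbp1, a sensor of Z-form nucleic acid, was at 382, 419, 401 and 310.4 against 256, 229, 254 and 307 (0.55, SE 0.11, edgeR adjusted p = 0.0727). None of these passed the adjusted threshold.

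In infants 18 members were higher and 0 lower at an unadjusted p under 0.05, beside 8.93% of all genes higher and 8.51% lower. DESeq2 called 14 members (6.84% of all genes). The median over all members was 0.248 (34 above 0), against -0.005 over all genes. By role, the median was 0.737 for GTPases, 0.437 for antigen presentation and 0.338 for transcription factors, against 0.110 for sensors and 0.091 for antiviral effectors, of which 12 of 19 were above 0. Ifit3 was at 58.1, 66.4, 67.5 and 31.8 CPM against 88.3, 34.4, 65.3 and 29.1, and the virion tether Bst2 at 58.2, 63.5, 73.1 and 61.1 against 75.5, 67.6, 94.6 and 55.9, both with overlap.

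Titled TIR1 replicate 4 stood apart, with the lowest level of its group for 40 of 43 members. Titled WT replicate 4 was the highest of its group for 14 members and the lowest for 20. Gbp2 was at 194 and 190.1 CPM in the 2 replicates 4, Irf1 at 452 and 460.0, and Igtp at 553 and 599.7. Without titled WT replicate 4, 12 members were called (10.99% of all genes), without titled TIR1 replicate 4, 2 were called, Ube2l6 and Gbp7 (0.0494%), and without both, a choice made after the data were seen, 19 were called (13.2%). The sum of the pDC markers Siglech, Spib, Klk1 and Cox6a2 was near 0 in these libraries, at most 0.262 CPM. With Irf8 added, it was 59.1 to 81.1 CPM in titled TIR1 and 34.7 to 54.4 in titled WT libraries. The part of Irf8 was not tested. Ighm was at 331.9 to 428.5 CPM in titled TIR1 and 263 to 331.3 in titled WT libraries, with Ms4a1 at most 0.217 and Pax5 at 0, and its part in the differences was not tested.

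**Figure D5:**
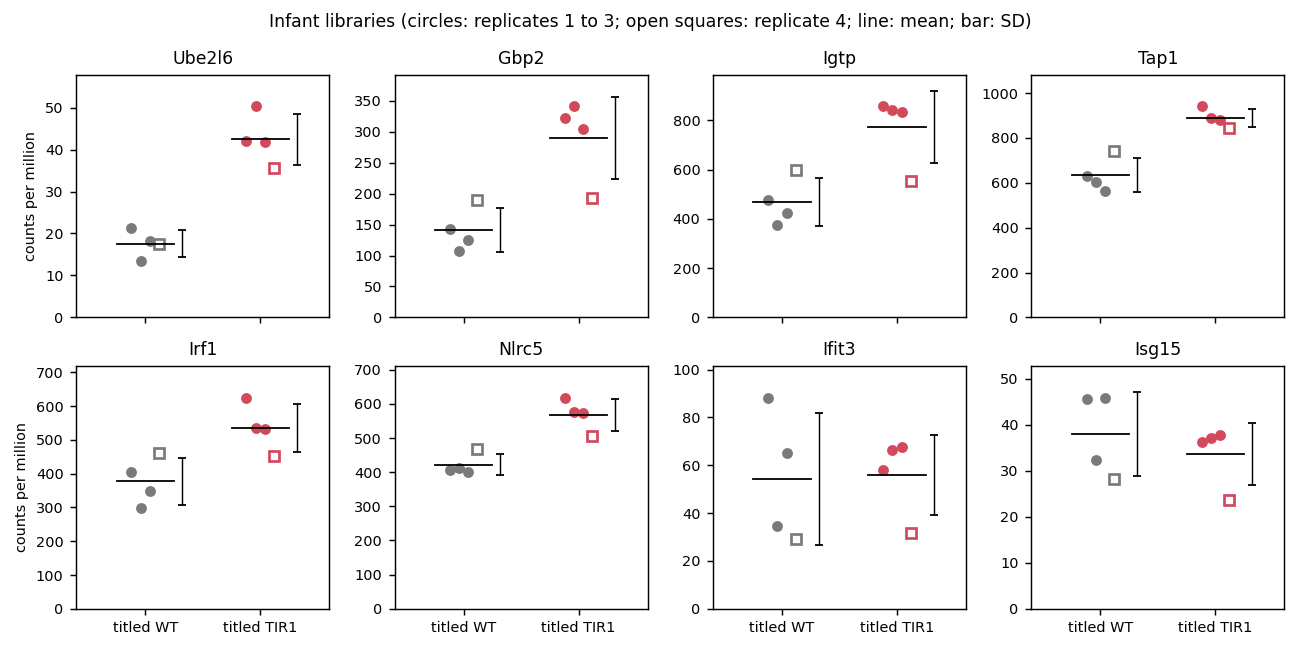
CPM of 8 members in the infant libraries, by title; circles are replicates 1 to 3, open squares replicate 4, lines the means and bars the SD of 4 libraries. Ube2l6, Gbp2, Tap1 and Nlrc5 did not overlap between groups, replicate 4 of both groups lay close together for Gbp2, Igtp and Irf1, and Ifit3 and Isg15 overlapped.

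In adults after 7 days of 5-ph-IAA, edgeR called 0 members between TIR1 and WT in nascent thymic cells and 0 in active cells. Ighm was at 905 to 966 CPM in active TIR1 and 1055 to 1445 in active WT libraries, and at 126.5 to 138 in thymus TIR1 and 157 to 175 in thymus WT libraries, with Ms4a1 at most 0.851 and Pax5 at most 0.0678, and its part in the differences was not tested. In thymus edgeR called 0 (0% of all 14245 genes), 9 had an unadjusted p under 0.05, 1 higher and 8 lower (7.37% of all genes), and DESeq2 called 3 (1.10%), Ifit2, Irf1 and Rtp4. Ifit2, which binds viral RNA, was at 114, 94.0 and 67.4 CPM with TIR1 against 50.8, 52.5 and 37.6 (0.96, SE 0.22, edgeR adjusted p = 0.47), with no overlap, which was not counted over all genes. Irf1 was at 416, 428 and 392 against 503, 519 and 465 (-0.27, SE 0.07, edgeR adjusted p = 0.493), and the antiviral protein Rtp4 at 304, 339.7 and 313 against 386, 419.6 and 373 (-0.31, SE 0.08, edgeR adjusted p = 0.495). The median over members was -0.098 (13 above 0), against -0.002 over all genes.

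In active cells edgeR called 0 (0% of all 14554 genes), 3 had an unadjusted p under 0.05 (4.62% of all genes) and DESeq2 called 0 (0.144%). The 3 were Usp18, at 126, 159 and 95.7 CPM with TIR1 against 98.2, 62.5 and 75.1 (0.65, SE 0.23), Mx1, at 11.7, 28.5 and 10.8 against 5.19, 8.42 and 9.93 (1.07, SE 0.45), and Ddx60, at 56.2, 65.1 and 56.9 against 45.9, 38.6 and 46.1 (0.41, SE 0.18), each with an edgeR adjusted p of 1. Of the 3, Usp18 overlapped between the genotypes and Mx1 and Ddx60 did not, which was not counted over all genes. All 19 antiviral effectors were above 0 (median 0.206) and all 5 GTPases below (median -0.315), beside 48.8% of all genes above 0. For several effectors TIR1 replicate 2 was the highest library of both genotypes, though not for Bst2 or Oasl1. Ifit3 was at 56.4, 103.5 and 43.8 CPM with TIR1 against 42.9, 33.8 and 52.0. Isg20 was at 87.1, 142.8 and 85.0 against 134.3, 83.8 and 85.1. Gbp7 was at 181, 186 and 83.4 CPM against 161, 190.3 and 266. Over all members the median was 0.096 (30 above 0), against -0.009 over all genes.

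The TIR1 effect in thymus against that in active cells was tested by the interaction, which called 0 members (0% of all genes). With an unadjusted p under 0.05 there were 7 (6.66% of all genes), led by Usp18 (-0.81, edgeR adjusted p = 0.684), and DESeq2 called 0 (0.481%). In the pathway lists edgeR called 0 genes in every list in the thymus, active and infant TIR1 comparisons.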

How the data were processed

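RNA of sorted Treg-lineage cells was amplified with the SMART-Seq v4 kit, and 64 libraries were sequenced as read pairs. The deposited values were raw counts of read pairs per gene, which the authors made with featureCounts (version 2.0.3 per the file headers) on GENCODE vM30 and mm39 (GRCm39), without strand. The 20 degron libraries were counted with primary alignments, same-chromosome pairs and a mapping quality limit, and the other 44 without these options. Per the labels, processing also used Bowtie2 and DESeq2. Counting without strand cannot separate Parp9 from Dtx3l or Psmb9 from Tap1, which overlap on opposite strands, and Gbp, Ifit and Oas paralogs can share reads.

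Each comparison was an edgeR (4.0.16) quasi-likelihood F test with TMM factors and robust dispersion on genes whose mean over the libraries fitted was 10 counts or more, with Benjamini-Hochberg adjustment over all genes tested and a threshold of 0.05. Fits held the libraries of thymus, active degron or infant cells alone, the 22 resting or the 22 active KIKO and GFP libraries with a mean per group, all 44 for contrasts of state, and all 12 adult degron libraries for thymus against active cells. A call is an adjusted p under the threshold. CPM used each library's total of assigned read pairs. p-values measure the spread between libraries. The paper describes the adult degron and KIKO libraries as independent biological replicates. Nothing in the labels ties libraries to separate animals, so the spread may in part be technical. All 46 pairs of libraries within groups differed by more than sampling noise (chi-square per degree of freedom 17.3 to 191), so each was counted. Depth, the limits of a count of 0 and intervals cover counting error only. No column of per-sample values was left unused (0).

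Replicate numbers were checked for pairing by the correlation of deviations from group means. With 2 libraries a group both numbers give the same value, so each pair of groups gives 1. For resting and active minusFoxp3 libraries with the same number it was above 0.1 in all 5 values (0.171 to 0.344), and over all groups of both states in 9 of 11 (-0.031 to 0.355). Between plusFoxp3 and minusFoxp3 or TIR1 and WT libraries it ran from -0.163 to 0.227 and was not above 0.1 throughout in any set with 3 or more pairs, so those numbers were not taken as pairs. The main fits of state did not pair resting with active libraries either, so their p-values treat correlated libraries as independent. A block within group and day was fitted as an alternative.

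Members were named where called, or, beyond 6 calls in a direction, the 3 of largest log2 fold change in that direction among those averaging 100 counts or more. Where none was called, up to 3 members with the smallest p were named, and Isg15, Irf7, Irf1, Stat2, Ifit3, Usp18, Ube2l6, Zbp1, Bst2, Gbp2, Igtp and Psmb8 could be named throughout. Other members named by value were chosen after their values were seen. The member list, the pathway lists and these rules were chosen with earlier results of these data known. Alternatives were DESeq2 (1.42.0), RLE size factors, no count filter, a replicate block, only the libraries compared, each library left out, and adult degron files by recorded attachment. Leaving out the pDC-marker libraries, leaving out both infant replicates 4, the block within group and day, and crossed GFP numbers were chosen after seeing the data. The edgeR test was tried on simulated counts for the thymus, active and infant TIR1 comparisons and for plusFoxp3 against minusFoxp3 cells at day 28. Other steps were not part of that trial. ISRE and GAS motifs were searched in RefSeq promoters.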

Additional observations from a re-analysis of the deposited data

Results flagged for a closer look

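Dixon's test of a single library far from its group, which chance alone passes in about 1 in 20 groups, was run on the 43 members in both infant groups, and 8 of 86 gave a ratio above its 95% critical value. In 7 of them the library was titled TIR1 replicate 4. Its Gbp7 was at 318 CPM with the other 3 at 487 to 498, Igtp at 553 with 835 to 857, Irgm1 at 237 with 381 to 410.2, Stat2 at 133 with 194 to 201, Dtx3l at 227 with 322 to 341, Trim30a at 67.3 with 118 to 127 and Isg15 at 23.7 with 36.2 to 37.8. Its levels of Gbp7, Igtp and Irgm1 lay within those of the titled WT libraries, which were 259 to 341, 373 to 599.7 and 189.7 to 282 CPM. In the remaining case titled WT replicate 4 had Psmb9 at 330 CPM with the others at 268 to 275, toward the titled TIR1 level of 373 to 384. The cause was not tested.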

How the results depend on the processing

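RLE size factors left all 24 counts of called members within 1.5 times or on the same side of 0. DESeq2 called more: thymus TIR1 3, infants 14, resting day 14 1, resting day 28 1, active day 7 4, day 14 2 and day 28 5. Without the count filter, which changes the genes tested and the spread they share, the infants gave 5, resting cells 1 (day 14) and 4 (day 28), active cells 2 (day 0), 8 (day 7), 5 (day 14) and 9 (day 28). Further counts were 9 and 15 for resting and active GFP Treg against minusFoxp3 day 0 cells, 1 for resting GFP Treg against plusFoxp3 day 28 cells, 5 and 7 across days in resting and active minusFoxp3 cells, 4 for the states of GFP Treg cells and 1 for the interaction at day 28. With only the 4 libraries compared, the counts for active cells were 0 (day 7), 1 (day 14) and 2 (day 28). Without the pDC-marker libraries they were 16 (day 7) and 3 (day 14), and without both infant replicates 4 the infants gave 19. The number taken as a replicate block gave 0 calls in infants (Ube2l6 edgeR adjusted p = 0.0731) and 1 in resting cells at day 28 (Gbp7, 0.0367), and, within group and day, 4 for the states of GFP Treg cells; the block changed no other count by over 1.5 times, and with the GFP numbers crossed the count for active GFP Treg cells was 9. Leaving out each library in turn gave 0 to 12 calls in infants, 0 to 5 in resting cells at day 0 (5 without plusFoxp3 replicate 2), 0 to 14 in active cells at day 7, 0 to 1 at day 14, 0 at day 28, 1 to 4 and 2 to 4 for resting and active GFP Treg against minusFoxp3 day 0 cells, 21 to 27 for the states of minusFoxp3 cells, 0 for the states of GFP Treg cells and 17 to 23 for thymus against active cells; the other comparisons stayed at 0. Under the recorded attachment of the adult degron files the signs turned by construction: Ifit2 -0.96, Irf1 0.27 and Rtp4 0.31 in thymus, Usp18 -0.65, Mx1 -1.07 and Ddx60 -0.41 in active cells, and Usp18 0.81, Ddx60 0.53 and Ifit2 -0.93 in the interaction. Except where the construction shows it, the cause was not tested. Depth limits only the members of lowest count, such as Ifi44, which was at 0 in 2 libraries.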

Other observations

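plusFoxp3 replicate 1 of day 0, from untreated mice, had the lowest levels of some members in its state. Among the 22 active libraries it was lowest for 3 of 43 members, Ddx60, Eif2ak2 and Trim30a, and among the 22 resting libraries for 10, Ddx60, Eif2ak2, Ifit2, Samd9l, Trim30a, Parp9, Dtx3l, Gbp2, Gbp7 and Irgm1. Ddx60 was at 16.0 CPM in its resting and 23.0 in its active library, and Eif2ak2, a kinase that halts translation on sensing double-stranded RNA, at 14.1 and 24.7. Resting minusFoxp3 replicate 2 of day 7 had the highest level in its state for 20 of 43 members, and active minusFoxp3 replicate 1 of day 14 the lowest for 17.

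The members deviated together between resting and active libraries with the same number. The median over members of the log2 CPM difference between replicates 1 and 2 had the same sign in both states in 7 of 11 groups, with a correlation of 0.819 over these 11 groups of 2 libraries per state, given as a description with no test.

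Infant libraries held little of 2 antiviral genes. Ifi44 was at 0 to 0.781 CPM and Oas1a, which rose in active GFP Treg cells, at 2.47 to 8.01 CPM in the 8 libraries. No test was made against adult cells, from which the infant libraries differ in age and sort and, per the paper, in sex and Foxp3-AID zygosity together.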
